A study of Mus musculus with 7 samples.

Results

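Glycolysis and the pentose phosphate pathway are represented here by 37 genes: glucose carriers, the glycolytic enzymes with their isozymes, the enzymes that set fructose bisphosphate levels, lactate dehydrogenases and monocarboxylate carriers, pyruvate dehydrogenase with its kinases, and 4 enzymes of the pentose phosphate pathway. They were chosen by symbol from the gene count table, in which all 37 were found among 35976 symbols. Of the 37, 36 passed the filter on low counts, as did 14679 symbols in all. The remaining member, Eno2 (neuronal enolase), had between 2 and 20 reads per library.

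The libraries were made from polyA RNA of cells left after magnetic depletion of lineage-marked cells from fetal livers of C57BL/6 embryos at E14.5, in mid-gestation. The 3 control libraries came from CD45.2(+) Brd9fl/fl embryos, and the 4 knockout libraries from CD45.2(+) Vav1-iCre Brd9fl/fl embryos. Both groups therefore carry loxP-flanked Brd9 alleles, and only the knockouts carry the recombinase, which the Vav1 promoter drives mainly in blood cells, so an effect of the recombinase and an effect of losing Brd9 cannot be told apart. Brd9 encodes a bromodomain subunit of a BAF (SWI/SNF) chromatin remodelling complex. No label ties a library to an individual embryo or to a pool, and every p-value therefore refers to the spread among libraries, some of which may be technical.

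Glycolysis splits glucose into pyruvate and yields ATP without oxygen. Hexokinase traps glucose in the cell, phosphofructokinase sets the pace, pyruvate kinase ends the pathway, and lactate dehydrogenase with the monocarboxylate carriers disposes of the product. The pentose phosphate pathway branches off after hexokinase and supplies NADPH and ribose. Pyruvate dehydrogenase converts pyruvate inside mitochondria, and its kinases switch it off. Quiescent blood stem cells are known for relying on glycolysis, mature red cells depend on it entirely, and hexokinase 3 is the hexokinase of myeloid cells.

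The promoters of the hexokinases and of the lactate carrier Slc16a3 are shown because the comparisons turn on these genes. Each sequence runs 5′ to 3′ on the gene's strand, over 300 bases around the start site, mostly upstream of it, in RefSeq's GRCm38.p6, and capitals mark ACGTG and GCGTG, the core of hypoxia response elements, and GAGGAA, a core bound by PU.1 and related factors, on either strand. Hk3 lies at chr13:55021336-55021635 (minus strand), Hk2 at chr6:82774405-82774704 (minus), an internal start of Hk1 at chr10:62340372-62340671 (minus) and Slc16a3 at chr11:120948817-120949116 (plus).
Hk3: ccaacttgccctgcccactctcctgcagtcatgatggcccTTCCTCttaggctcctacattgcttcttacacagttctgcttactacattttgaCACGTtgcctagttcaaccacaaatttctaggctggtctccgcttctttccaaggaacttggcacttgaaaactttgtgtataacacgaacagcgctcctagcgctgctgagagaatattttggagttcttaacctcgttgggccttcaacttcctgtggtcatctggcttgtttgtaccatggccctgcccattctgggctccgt
Hk2: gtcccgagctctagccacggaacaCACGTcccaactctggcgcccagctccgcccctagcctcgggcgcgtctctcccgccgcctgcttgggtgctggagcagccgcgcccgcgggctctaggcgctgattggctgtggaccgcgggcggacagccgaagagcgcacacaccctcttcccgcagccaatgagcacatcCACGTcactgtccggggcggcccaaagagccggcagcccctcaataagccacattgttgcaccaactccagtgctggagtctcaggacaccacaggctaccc
Hk1: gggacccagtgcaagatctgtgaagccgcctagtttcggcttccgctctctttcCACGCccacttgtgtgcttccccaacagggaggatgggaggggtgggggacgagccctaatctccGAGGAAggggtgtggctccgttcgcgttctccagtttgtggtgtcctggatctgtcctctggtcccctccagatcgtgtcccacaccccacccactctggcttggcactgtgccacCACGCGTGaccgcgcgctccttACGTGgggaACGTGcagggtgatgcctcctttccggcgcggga
Slc16a3: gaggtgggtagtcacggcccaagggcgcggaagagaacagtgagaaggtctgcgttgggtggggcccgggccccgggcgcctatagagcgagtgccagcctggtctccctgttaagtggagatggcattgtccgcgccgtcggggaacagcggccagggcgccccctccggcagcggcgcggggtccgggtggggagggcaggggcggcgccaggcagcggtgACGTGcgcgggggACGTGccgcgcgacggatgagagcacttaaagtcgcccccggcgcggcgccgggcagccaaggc
The Hk3 window held 2 matches, 1 of them GAGGAA read on the opposite strand. The Hk2 and Slc16a3 windows held 2 matches each, all of the ACGTG core, and the Hk1 window held 6. A second Hk1 window, further upstream at chr10:62379859-62380158, held 0.

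RefSeq gave 57 promoter windows for 36 of the 37 genes, of 32851 windows in all. ACGTG or GCGTG stood in 71.9% of the windows of these genes and in 43.8% of all windows. ACGTG alone, which overlaps the E-box CACGTG, stood in 40.4% against 19.6%, and GCGTG in 52.6% against 32.4%. Base composition differs too, with a median GC content of 57.7% against 52.7%. Among windows at or above 57.7% GC, the core stood in 93.1% of 29 windows of these genes and in 67.0% of all 11677. GAGGAA stood in 26.3% of the windows of these genes and in 28.3% of all windows, and TTNNGNAA, a C/EBP-type sequence, in 38.6% and 40.7%. These matches describe the letters only.

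Library totals ran from 18748885 to 23571878 reads. Brd9 itself measured 30.5 to 36.4 CPM (reads scaled to library size and composition) in controls and 8.57 to 13.2 in knockouts. Xist, the RNA of the inactive X chromosome, was between 740 and 802 CPM in controls 1 and 3 and knockout 2 and below 1 CPM in control 2 and knockouts 1, 3 and 4. Summed neutrophil markers ran from 5068 to 9008 CPM in controls and from 1710 to 3873 CPM in knockouts, and summed erythroid markers from 3172 to 5475 and from 5227 to 7013 CPM. Liver cell markers were present in every library, at 10820 to 18950 and 13670 to 24460 CPM, and stem and early progenitor markers at 494 to 721 and 405 to 570 CPM. These 37 genes took between 0.900% and 1.11% of each library's reads.

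Of the 36 tested genes, Hk3 alone passed the test, and it was lower in the knockouts, a call made in 3 of the 7 fits that leave out 1 library. At an adjusted p under 0.05 in edgeR's quasi-likelihood test this is 1 gene lower and 0 higher, where 0.545% and 0.0136% of all tested genes were called lower and higher. Without adjustment, 13 of the 36 had p under 0.05, beside 10.9% of all tested genes. Of these, 8 were higher and 5 lower in the knockouts, beside 3.95% and 6.9% of all tested genes in those directions. This split was 2 higher and 4 lower without control 1 and also with the Xist level as a covariate, and 3 higher and 4 lower without control 3. It was 11 higher and 6 lower without control 2, and 12 higher and 3 lower with the hepatocyte (liver cell) marker level as a covariate. The groups did not overlap for 7 genes that were higher in every knockout (Slc2a1, Pfkl, Pfkfb1, Aldoc, Tpi1, Eno3 and Slc16a3) and for 4 that were lower (Hk3, Pfkfb3, Pdha1 and Pgd), where 4.39% and 6.81% of all tested genes separated in that way. The median log2 fold change of the 36 was 0.08, beside 0.01 over all tested genes. The members' median was 0.03 without control 1 and 0.14 without control 2. Of the 36, 23 had a positive value, beside 52.4% of all genes.

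**Figure D1:**
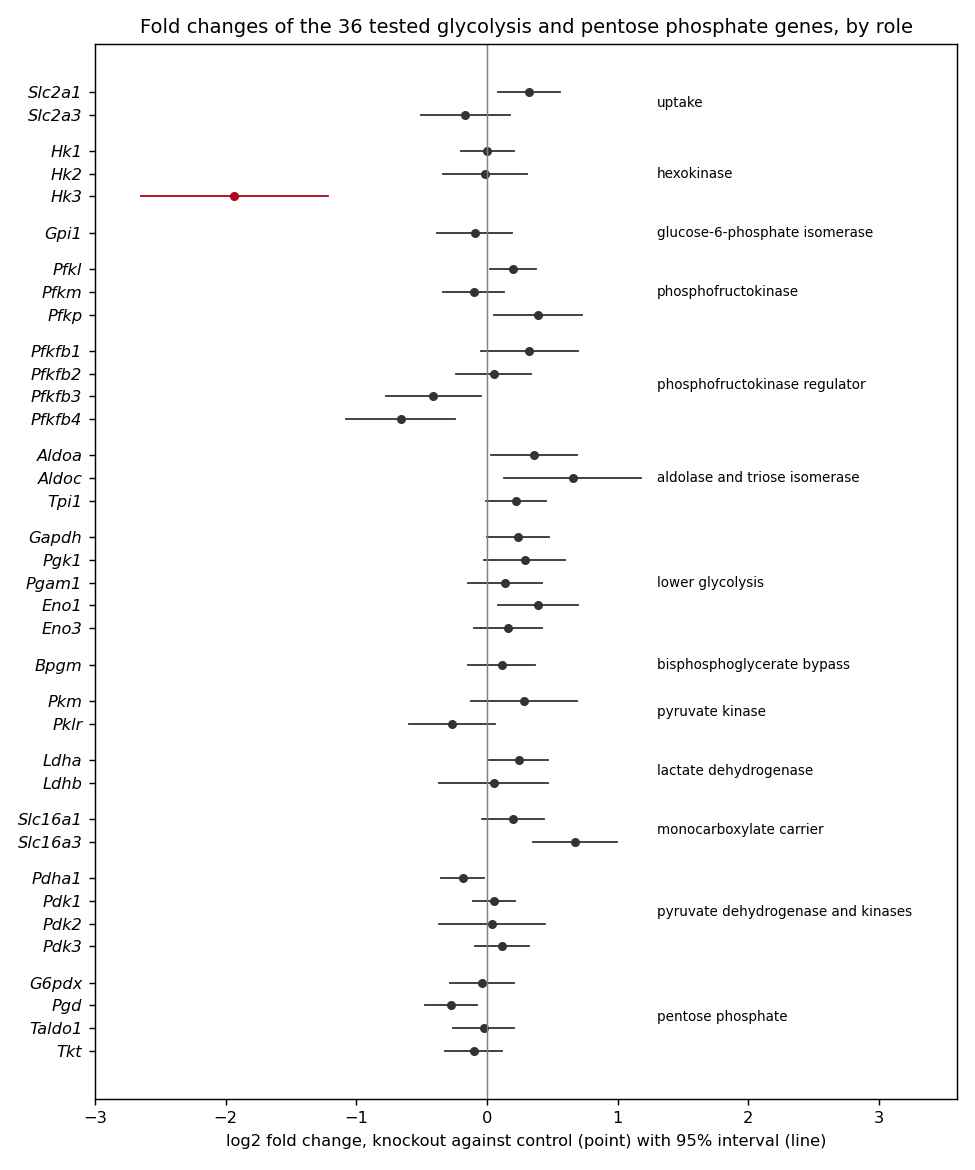
Log2 fold changes (knockout against control, horizontal axis) of the 36 tested genes, grouped by role, with 95% intervals as lines; red marks an adjusted p under 0.05. Only Hk3, at -1.94, is red, and the 5 tested genes of lower glycolysis lie right of 0 while the 4 pentose phosphate genes lie left of it, of which G6pdx and Taldo1 turned positive in 4 of 18 alternatives each.

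In the authors' deposited table, which holds a DESeq2 comparison of the same libraries, 3 of the 37 genes had an adjusted p under 0.05, 1 higher and 2 lower, beside 2.19% of all symbols with an adjusted p (0.31% higher and 1.88% lower). These were Hk3 at a log2 fold change of -1.94 (adjusted p = 8.06e-08), Pfkfb4 at -0.66 (0.0481) and Slc16a3 at 0.68 (0.00226). Pfkfb4 and Slc16a3 did not pass edgeR's test.

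The members that encode glucose carriers are Slc2a1 (GLUT1) and Slc2a3 (GLUT3). Slc2a2, a related gene that is no member, had 12.9 ± 3.03 CPM in controls and 14.8 ± 4.64 CPM in knockouts. Slc2a1 measured 49.4, 52.5 and 50.2 CPM in controls and 74.0, 54.5, 61.2 and 64.1 CPM in knockouts. Every knockout stood above every control, knockout 2 by little, and the log2 difference of 0.32 (SE 0.10) missed the threshold (edgeR adjusted p = 0.287). Slc2a3 measured 94.7, 129 and 91.1 CPM in controls and 104, 103, 73.3 and 94.3 CPM in knockouts, with overlapping groups and a log2 difference of -0.17 (adjusted p = 0.732). Per kilobase of longest transcript both carriers were at like levels in controls, 15.5 ± 0.486 CPM per kb for Slc2a1 and 16.8 ± 3.37 for Slc2a3 (SD, n = 3).

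Hexokinase 3 fell 3.83-fold, while the values of hexokinases 1 and 2 stayed close together in the 2 groups. Hk3 (chr13:55005985-55021385, minus strand, GRCm38) measured 31.8, 48.6 and 41.6 CPM in controls and 4.80, 13.6, 14.8 and 9.15 CPM in knockouts. The groups were far apart, with knockout 1 the lowest library and control 2 the highest. The means were 40.7 ± 8.44 (SD, n = 3) and 10.6 ± 4.55 CPM (SD, n = 4), a log2 fold change of -1.94 (SE 0.32, 95% interval -2.65 to -1.22, edgeR adjusted p = 0.0343). Over 18 alternatives the log2 difference ran from -2.14 to -1.51, and it was called in 12. The call was lost without control 2 (edgeR adjusted p = 0.110), control 3 (0.135), knockout 2 (0.0907) or knockout 4 (0.108), without knockouts 1 and 4 together (0.0676), and in the fit that includes Xist (-1.91, 0.0978). In bulk RNA, fewer cells that express Hk3 and less Hk3 RNA per cell cannot be told apart.

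Hk1 (chr10:62268855-62379908), the hexokinase of most tissues and of red cells, measured 567, 500 and 600 CPM in controls and 585, 568, 551 and 525 CPM in knockouts. Its groups overlapped fully, and the log2 difference of 0.003 had a 95% interval from -0.20 to 0.20 (edgeR adjusted p = 0.994). Hk2 (chr6:82725025-82774454), an inducible, mitochondria-bound isozyme, measured 56.7, 79.6 and 57.1 CPM in controls and 71.4, 62.2, 53.9 and 68.1 CPM in knockouts. Control 2 was the highest library for Hk2, and the log2 difference was -0.01 with an interval from -0.33 to 0.30 (adjusted p = 0.982). These intervals exclude a change of the size seen for Hk3.

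Set against each other within libraries, the log2 ratio of Hk3 to Hk1 was -3.79 ± 0.400 in controls and -5.83 ± 0.762 in knockouts (SD, n = 3 and 4), a difference of -2.04. For Hk3 to Hk2 the ratio went from -0.67 ± 0.193 to -2.70 ± 0.889, a difference of -2.03. Both differences had an exact permutation p of 0.0286, two-sided, the smallest that 35 splits allow. After adjustment over 6 such tests it was 0.0571, over the threshold. With that smallest p, a test could pass only if most of the 6 reached it, so the miss decides nothing. Hk3 alone differed by -2.03 in log2 CPM with the same exact p, so the 2 ratios repeat its difference and are no separate evidence. Hk2 to Hk1 differed by -0.01 (exact p = 0.943, adjusted 1.0).

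As shares of the hexokinase signal per kilobase of merged exons, Hk3 made up 10.2%, 15.5% and 12.4% in controls and 1.59%, 4.59%, 5.17% and 3.30% in knockouts. Hk1 made up 74.8% ± 5.26 and 82.8% ± 0.958, and Hk2 12.5% ± 2.80 and 13.6% ± 1.61 (SD, n = 3 and 4). With the longest transcript as the length instead, the Hk3 share was 8.22% and 2.28%. Either way Hk1 was the main hexokinase in every library.

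**Figure D2:**
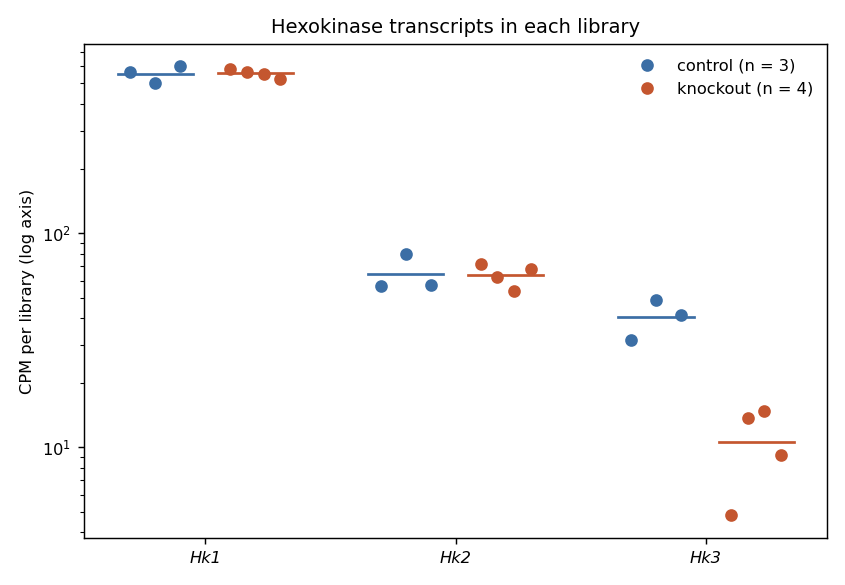
CPM of Hk1, Hk2 and Hk3 in each library (points, log axis), with the group means as lines. The 4 knockout points of Hk3 lie between 4.80 and 14.8 CPM, under all 3 control points, while the points of Hk1 and Hk2 overlap between groups.

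Some markers of the cells known for Hk3 also fell. Of 17 neutrophil and early granulocyte markers, 8 were called lower and 0 higher by edgeR, beside 0.545% and 0.0136% of all tested genes. DESeq2 called 9 lower and 0 higher, beside 322 and 52 of all 14679 tested genes. The markers had a median log2 fold change of -1.42, and none was at 0 in any library. EdgeR's 8 were the granule proteins Mpo, Elane, Prtn3, Ctsg and Camp, the lectin Fcnb, the membrane protein Ms4a3 and the repressor Gfi1. Their log2 values ran from -5.31 for Camp to -1.42 for Ms4a3. The other 9 were not called by edgeR, among them Ltf (-0.53), Lcn2 (-0.42), S100a8 (-1.02) and S100a9 (-1.13), whose groups overlapped. Mmp8 had a positive value of 1.97 (edgeR adjusted p = 0.320) at under 4 CPM in every library. Of 12 tested macrophage markers, 1, the sialic acid receptor Siglec1, was called lower by edgeR at -3.86 and 0 higher. At an unadjusted p under 0.05, 7 were lower and 0 higher, beside 6.9% and 3.95% of all tested genes. DESeq2 called 6 of the 12 lower and 0 higher. Their median log2 fold change was -0.97, with 1 positive value, Cd68 at 0.07. Summed macrophage markers ran from 235 to 320 CPM in controls and from 89.6 to 171 CPM in knockouts. The macrophage marker Cd163 did not pass the filter on low counts, and its groups overlapped. It was at 0.08 to 0.28 CPM in controls, at 0 in knockouts 2 and 4, at 0.05 CPM in knockout 1 and at 0.14 CPM in knockout 3. Per 1000 CPM of summed neutrophil markers, Hk3 measured 6.27, 5.39 and 5.73 CPM in controls and 2.81, 6.04, 3.81 and 4.29 CPM in knockouts, so on this scale knockout 2 lay among the controls. Per 1000 CPM of macrophage markers it measured 99.3, 207 and 152 CPM in controls and 53.6, 109, 91.3 and 53.4 CPM in knockouts. The part of these cells in the Hk3 difference was not tested.

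After hexokinase, Gpi1 converts glucose phosphate to fructose phosphate, and phosphofructokinase commits the sugar to glycolysis. Gpi1 measured 609 ± 77.9 and 571 ± 80.6 CPM in controls and knockouts (SD, n = 3 and 4). Pfkl, the liver-type subunit, had 255 ± 5.44 and 294 ± 19.3 CPM, with every knockout above every control, and a log2 difference of 0.20 (edgeR adjusted p = 0.398). Pfkp, the platelet-type subunit, had 37.3 ± 8.53 and 48.8 ± 5.38 CPM and a log2 difference of 0.39 (adjusted p = 0.393). Without control 2 and knockout 3, the libraries farthest from their groups, Pfkp was called higher at 0.64 (edgeR adjusted p = 0.0378, range over its 18 alternatives 0.0378 to 0.733). Pfkm, the muscle-type subunit, had 112 ± 15.3 and 104 ± 8.15 CPM. Per kilobase, Pfkp held 3.05% to 5.63% of the phosphofructokinase signal over the 7 libraries, and Pfkl 51.4% ± 3.09 in controls and 55.8% ± 0.689 in knockouts.

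The bifunctional PFKFB enzymes make and remove the sugar bisphosphate that activates phosphofructokinase, and their log2 values lay on both sides of 0. Pfkfb4 (chr9:108991778-109032228) measured 12.6, 17.6 and 16.0 CPM in controls and 9.55, 8.66, 12.6 and 8.13 CPM in knockouts. Knockout 3 reached the level of control 1, and the log2 difference was -0.66 (SE 0.19, edgeR adjusted p = 0.205). Pfkfb3, the isoform with the strongest kinase bias, measured 35.8, 51.5 and 36.9 CPM in controls and 33.9, 30.9, 24.6 and 35.3 CPM in knockouts. Its groups were separate by a narrow margin, and the log2 difference was -0.41 (adjusted p = 0.401). Pfkfb1, the liver and muscle isoform, was the least abundant of the 4 at 5.61 ± 0.656 and 7.02 ± 0.725 CPM, and Pfkfb2 had 36.9 ± 2.69 and 38.2 ± 5.90 CPM. The Pfkfb1 share of the family's signal per kilobase was 9.30% ± 1.16 in controls and 13.4% ± 1.76 in knockouts, and the groups did not overlap.

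Aldolase and triose phosphate isomerase, which yield the triose phosphates, had 3 of 3 positive log2 values with a median of 0.36. None passed edgeR's or DESeq2's test, and 2 had an unadjusted p under 0.05. Aldoa measured 617, 830 and 613 CPM in controls and 895, 795, 1056 and 774 CPM in knockouts. Control 2 stood above knockouts 2 and 4, and the log2 difference was 0.36 (edgeR adjusted p = 0.418). Aldoc, the brain-type aldolase, was at 3.10 ± 0.687 and 4.89 ± 0.958 CPM and made up under 1% of the aldolase signal per kilobase. Tpi1 had 619 ± 41.7 and 721 ± 75.5 CPM, with separate groups and a log2 difference of 0.22 (adjusted p = 0.486).

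The enzymes from Gapdh to enolase all had positive log2 values, 5 of 5 tested, with a median of 0.24. None passed edgeR's or DESeq2's test, and 1 had an unadjusted p under 0.05. Eno1, the general enolase, measured 706, 891 and 780 CPM in controls and 1195, 922, 1160 and 876 CPM in knockouts. Control 2 stood above knockout 4, and the log2 difference was 0.39 (edgeR adjusted p = 0.330). Eno1b, a near-identical copy that can share reads with Eno1, had 91.6 ± 5.02 and 118 ± 18.7 CPM, so counts of both are uncertain. Gapdh had 289 ± 9.83 and 341 ± 43.8 CPM, Pgk1 413 ± 57.3 and 505 ± 79.2 CPM, Pgam1 339 ± 62.8 and 372 ± 31.2 CPM, and the muscle enolase Eno3 10.4 to 11.0 and 11.8 to 12.3 CPM. Bpgm, which makes the bisphosphoglycerate that lowers haemoglobin's oxygen affinity, had 27.9 ± 1.93 and 30.1 ± 3.45 CPM. The 16 erythroid markers had a median log2 fold change of 0.36, with 0 called by edgeR. At an unadjusted p under 0.05 there were 9, 7 higher and 2 lower, beside 3.95% and 6.9% of all tested genes. DESeq2 called 6, 4 higher and 2 lower, beside 52 and 322 of all 14679 tested genes. The part of erythroid cells in the values of these enzymes was not tested.

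**Figure D3:**
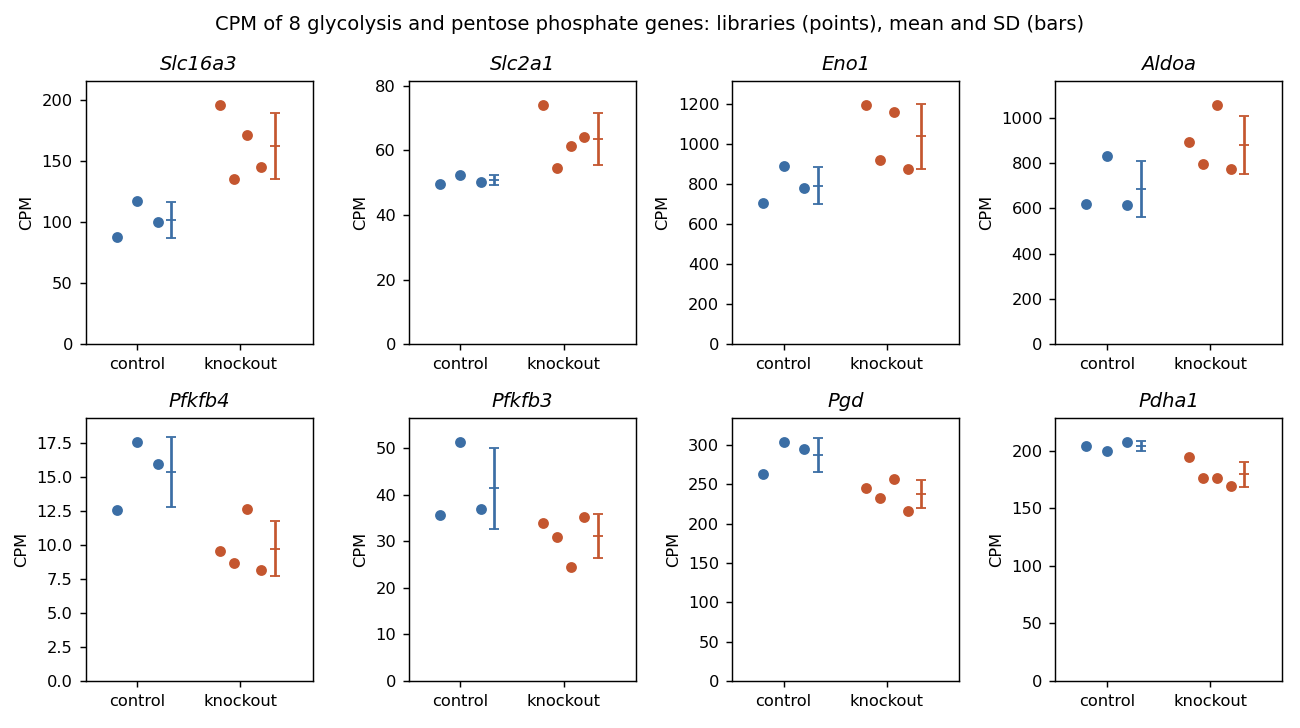
CPM in each library (points) with the mean and SD (bars) for 8 genes, controls in blue and knockouts in red. For Slc16a3 and Slc2a1 all knockout points lie above the control points, for Eno1 and Aldoa they overlap, and for Pgd, Pdha1 and Pfkfb3 the knockout points lie just under the controls.

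Pyruvate kinase comes from Pkm, used by progenitors and most tissues, and from Pklr, the liver and red cell gene. Pkm measured 501, 825 and 527 CPM in controls and 883, 687, 775 and 663 CPM in knockouts. Pklr measured 652, 439 and 679 CPM in controls and 497, 509, 521 and 437 CPM in knockouts. For both genes control 2 sat with the knockouts and away from the other 2 controls. The log2 differences were 0.28 and -0.26, with edgeR adjusted p of 0.623 and 0.578.

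Per kilobase, Pkm made up 33.2%, 54.9% and 33.4% of pyruvate kinase signal in controls and 53.5%, 46.6%, 49.0% and 49.5% in knockouts. Control 2 had the highest share of all 7 libraries. Without control 2 the log2 differences were 0.55 for Pkm (edgeR adjusted p = 0.209) and -0.44 for Pklr (0.174), still short of the threshold. Control 2 is also the control with the highest summed neutrophil markers, the lowest summed erythroid markers and the low Xist level, and the part of these in its pyruvate kinase values was not tested.

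**Figure D4:**
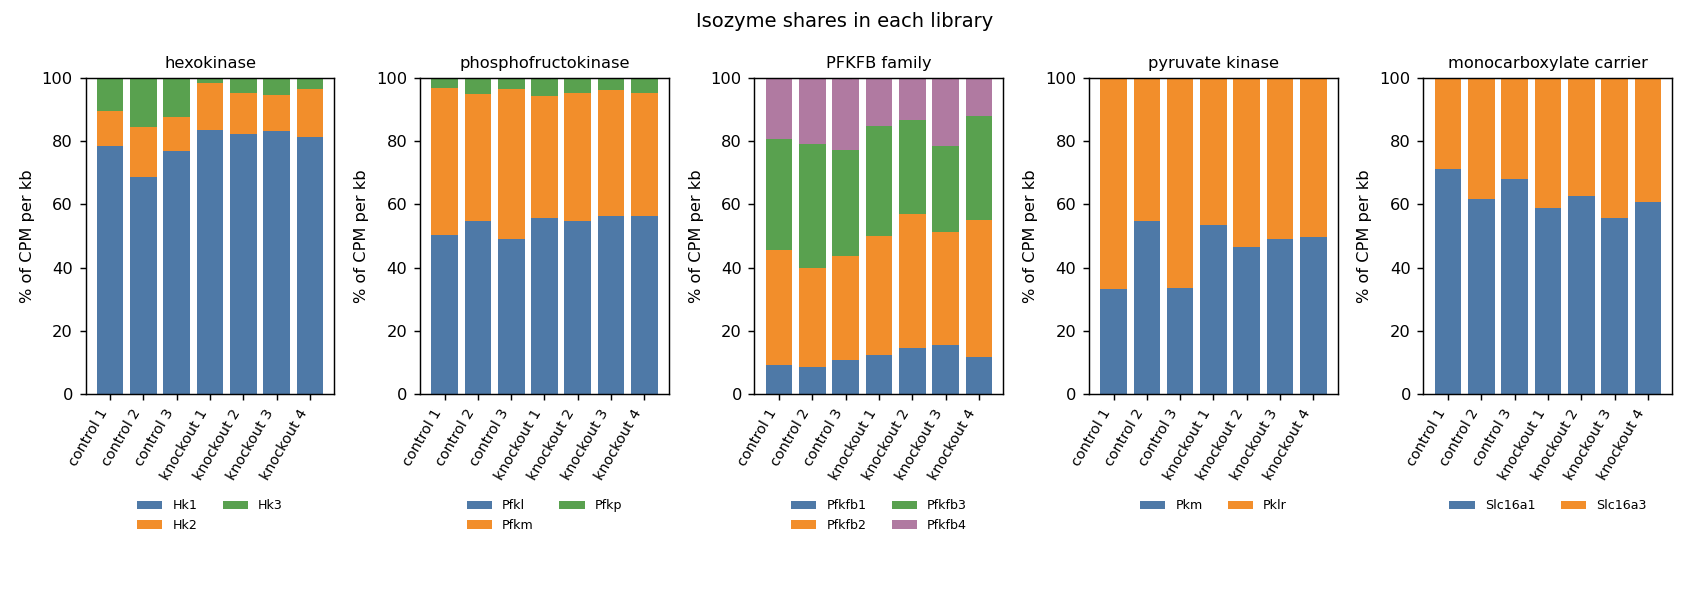
Share of each isozyme in its enzyme's summed CPM per kilobase of merged exons (vertical axis, percent), by library, for hexokinase, phosphofructokinase, the PFKFB family, pyruvate kinase and the monocarboxylate carriers. Hk3 falls from 10.2% to 15.5% in controls to 1.59% to 5.17% in knockouts, and the Pkm share of control 2 (54.9%) stands apart from the other controls.

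Lactate is made by Ldha, the muscle-type subunit, which held over 97% of the lactate dehydrogenase signal per kilobase. Ldha measured 895, 1036 and 904 CPM in controls and 1232, 1027, 1153 and 1060 CPM in knockouts, with control 2 above knockout 2, and a log2 difference of 0.24 (edgeR adjusted p = 0.420). Ldhb had 11.4 ± 2.12 and 11.8 ± 2.06 CPM.

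Slc16a3 encodes MCT4, a carrier suited to lactate export from glycolytic cells. The gene (chr11:120948480-120960868, plus strand) measured 87.6, 117 and 99.8 CPM in controls and 196, 136, 171 and 145 CPM in knockouts. All 4 knockouts stood above all 3 controls, with knockout 1 the highest. The means of 101 ± 14.8 and 162 ± 27.2 CPM gave a log2 difference of 0.67 (SE 0.14, 95% interval 0.35 to 0.99). Its adjusted p was 0.0866 in edgeR, just over the threshold. With all genes kept in the fit it was 0.0186, and over 18 alternatives it ran from 0.00226 to 0.328, under 0.05 in 2 of them. Slc16a1, which encodes the more widespread carrier MCT1, had 172 ± 13.3 and 197 ± 24.9 CPM and a log2 difference of 0.20 (adjusted p = 0.56). Embigin (Emb), which escorts monocarboxylate carriers to the membrane, measured 123 ± 36.2 and 81.1 ± 18.2 CPM with a log2 difference of -0.60 (adjusted p = 0.328). Basigin (Bsg), another such escort, measured 385 ± 35.2 and 434 ± 54.2 CPM with a log2 difference of 0.17 (edgeR adjusted p = 0.638).

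Pdha1 encodes the catalytic alpha subunit of pyruvate dehydrogenase, which works inside mitochondria. It measured 205, 200 and 208 CPM in controls and 195, 177, 177 and 170 CPM in knockouts. The groups were separate, and the log2 difference was small at -0.19 (edgeR adjusted p = 0.397). The kinases that inhibit the complex had log2 differences between 0.04 and 0.11. Pdk1 had 189 ± 12.4 and 197 ± 3.48 CPM, Pdk2 15.5 ± 1.17 and 15.9 ± 3.39 CPM, and Pdk3 47.3 ± 1.71 and 51.1 ± 4.70 CPM. Pdk1 supplied 51.0% ± 1.90 of the kinase signal per kilobase in controls and 50.4% ± 2.23 in knockouts. Pdk4, which is no member, was near 1 CPM in both groups.

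All 4 pentose phosphate genes had negative log2 values, with a median of -0.07, although G6pdx (-0.04) and Taldo1 (-0.03) each turned positive in 4 of 18 alternatives, up to 0.07 and 0.08. None passed edgeR's or DESeq2's test, and 1 had an unadjusted p under 0.05. Pgd, which takes the second NADPH-yielding step, measured 263, 304 and 295 CPM in controls and 245, 233, 257 and 216 CPM in knockouts. Every knockout stood below every control, control 1 and knockout 3 being close, and the log2 difference was -0.27 (SE 0.09, edgeR adjusted p = 0.287). G6pdx, the gate of the pathway, had 137 ± 10.2 and 133 ± 18.0 CPM and Taldo1, a sugar-rearranging enzyme, 289 ± 13.4 and 283 ± 35.5 CPM. Tkt, the transketolase, measured 871, 920 and 941 CPM in controls and 819, 830, 969 and 777 CPM in knockouts, with knockout 3 the highest library.

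Libraries of 1 group also differed from each other. Control 2 stood above both other controls for 22 of the 36 tested genes. Among the knockouts, knockout 3 was highest for 18 genes and knockout 1 for 14. The highest value of all 7 libraries fell in knockout 3 for 12 genes, in knockout 1 for 10 and in control 2 for 7, and the lowest fell in control 1 for 12 and in knockout 4 for 9. Knockout 3 also held the highest summed erythroid markers and knockout 1 the lowest neutrophil markers.

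**Figure D5:**
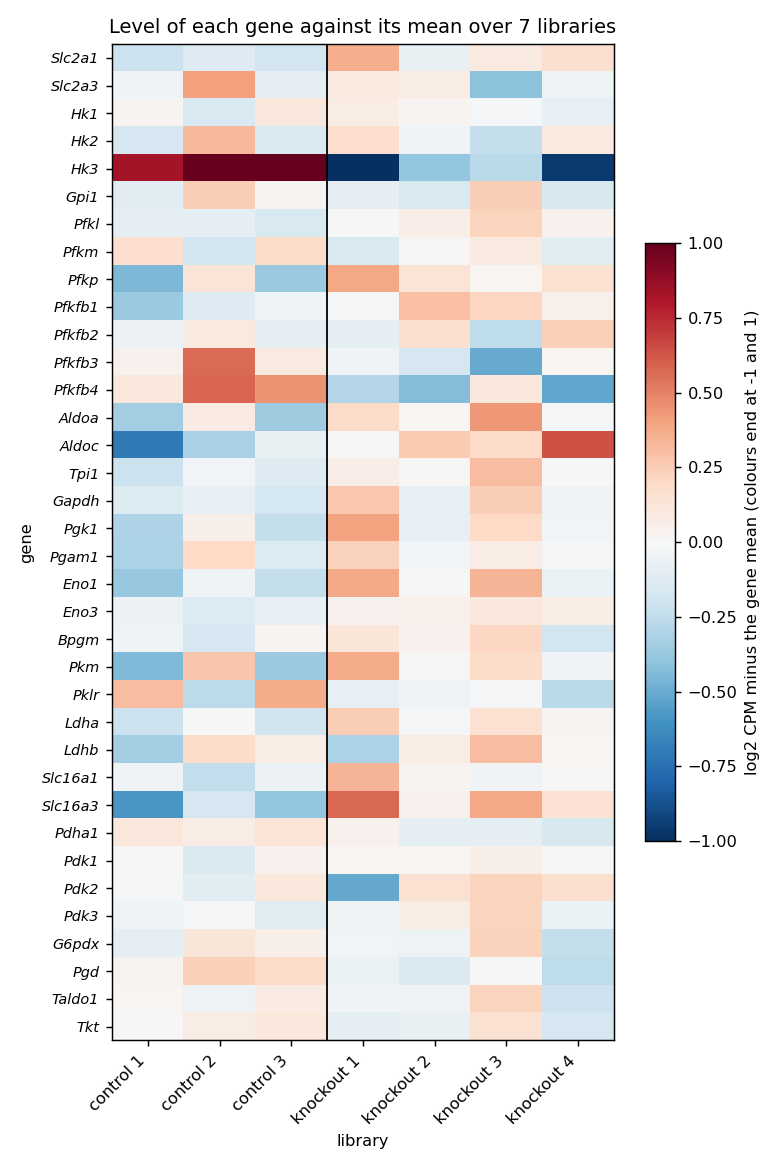
Deviation of each gene's log2 CPM from its mean over the 7 libraries (colour, saturating at ±1), genes in rows by role and libraries in columns. Hk3 separates the groups, while the genes of lower glycolysis and lactate have a median deviation of -0.31 in control 1, 0.25 in knockout 1 and 0.19 in knockout 3.

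No gene of the related pathway lists passed edgeR's test. Over all tested genes, 10.9% had an unadjusted p under 0.05. Of 31 other enzymes of glycolysis, gluconeogenesis and the pentose phosphate pathway, 23 were tested and 0 were called (2 at an unadjusted p under 0.05, 0 in DESeq2), with a median log2 fold change of -0.05. The smallest p values belonged to the phosphatases Minpp1 (229 ± 26.3 and 178 ± 14.8 CPM, edgeR adjusted p = 0.190) and G6pc3 (43.7 ± 4.70 and 34.7 ± 3.62 CPM, adjusted p = 0.312). Tigar, which lowers the phosphofructokinase activator, had 6.29 to 8.23 and 5.05 to 6.82 CPM. Of 18 other sugar, phosphate sugar and monocarboxylate carriers 13 were tested and 0 called (2 unadjusted, 0 in DESeq2). Of 9 other pyruvate dehydrogenase genes 8 were tested and 0 called (1 unadjusted, 0 in DESeq2).

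Among 19 regulators of glycolytic genes 0 were called by edgeR, 0 had an unadjusted p under 0.05 and 0 were called by DESeq2, with a median log2 fold change of -0.01. Hif1a, the oxygen-regulated activator, had 67.6 ± 7.30 and 71.6 ± 6.55 CPM and Klf1, the red cell activator, 240 ± 41.2 and 271 ± 40.9 CPM. Txnip, a brake on glucose uptake, had 108 ± 34.7 and 95.9 ± 14.9 CPM. The smallest p values among the 19 belonged to Arrdc4 and Myc, both lower in every knockout than in every control. Arrdc4 had 11.3 ± 0.307 and 8.58 ± 1.85 CPM (edgeR adjusted p = 0.466). Myc had 182 ± 6.25 and 165 ± 2.86 CPM (edgeR adjusted p = 0.495). Keap1 was higher in every knockout than in every control, at 86.4 ± 0.953 and 90.8 ± 2.30 CPM. Of 18 hypoxia response genes outside glycolysis, 17 were tested and 0 called by edgeR or DESeq2, with a median of 0.02. At an unadjusted p under 0.05, 3 of these were higher (Higd1a, Plod2 and Ak4) and 2 lower (Mxi1 and Ero1l). The shares of all tested genes were 3.95% higher and 6.9% lower.

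The 5 X-linked members (Pgk1, Pdha1, Pdk3, G6pdx and Pfkfb1) had log2 differences between -0.19 and 0.32, with 0 called by edgeR or DESeq2 and 1, Pdha1, at an unadjusted p under 0.05. With the Xist level as a covariate, 0 of the 36 genes were called and 6 had an unadjusted p under 0.05.

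Some of these genes share exon bases with others in GENCODE, so their counts depend on a counting setting that is not named in the sources used here. On the same strand, Pfkfb2 shares 1262 bases with Gm29427, Pkm 767 with Gm49759 and Pfkm 341 with Gm26513. On the opposite strand, Pfkp shares 748 bases with Pitrm1, Gpi1 741 with Gm26762, Pklr 711 with Hcn3, Pdha1 603 with Map3k15 and G6pdx 418 with Ikbkg. Hk3 shares 34 bases with Unc5a and Hk1 157 with Hk1os.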

How the data were processed

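The authors deposited raw read counts per gene symbol for 3 control and 4 knockout libraries, made with HISAT2 (mm10) and featureCounts per the submitters' processing notes. The sources used here do not name versions, annotation, strand setting or handling of multi-mapping reads, so overlapping or near-identical genes are uncertain. The authors' deposited DESeq2 table holds a signal (size-factor scaled counts), log2 fold changes, a test score, and p-values with adjusted p-values.

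Counts were filtered with filterByExpr, scaled by TMM and tested with edgeR 4.0.16 quasi-likelihood (R 4.3.3, group only), with Benjamini-Hochberg adjustment over all 14679 genes and a threshold of 0.05. Standard errors were taken from the F statistic. Log2 CPM used a prior count of 2. Levels and ratios of hexokinases were tested by exact permutation over 35 splits. Lengths came from GENCODE M21 (GRCm38). Alternatives were other scaling, filters, DESeq2 1.42.0, limma-voom 3.58.1, a replicate block, Xist or hepatocyte level as covariates and left-out libraries. Code was tested on simulated data. The genes and lists were chosen with earlier results of these data known. All members are named, as are genes of other lists called by edgeR. Some genes with the smallest p in those lists, and some isozymes and regulators listed by name, are named too. Uncalled markers, Bsg, Keap1, Gapdhs and Pgam2 were named after their values were seen. Depth of 18748885 to 23571878 reads limits precision mainly for genes under 10 CPM.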

Additional observations from a re-analysis of the deposited data

Results flagged for a closer look

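Among 37 genes, with 4 knockout libraries each, 3 had a library set apart from the others of its group by Dixon's criterion, which chance alone meets in about 1 group in 20. Gpi1 measured 690.6 CPM in knockout 3, where the nearest other knockout had 546.0 CPM. Slc16a1 measured 234.4 CPM in knockout 1, where the nearest had 188.4 CPM. Pdk2 measured 10.86 CPM in knockout 1, where the nearest had 17.23 CPM.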

How the results depend on the processing

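The number of these genes called was 1 in the reported fit, 2 with no filter on low counts, 3 in DESeq2, 0 with the Xist level as a covariate, 0 without knockouts 1 and 4, and 2 without control 2 and knockout 3, a setting chosen after seeing the data. Leaving out each library in turn gave 0 to 1. The 13 genes at an unadjusted p under 0.05 became 6 with the Xist covariate and 6 to 17 with each library left out. Over all 14679 genes, 580 higher and 1013 lower at that threshold became 319 and 842 with the Xist covariate. Over all genes, the 82 called became 228 with no filter, 382 in DESeq2, 52 with the Xist covariate, 7 without knockouts 1 and 4, 130 without control 2 and knockout 3, and 20 to 120 with each library left out. The median log2 fold change of the genes moved from 0.08 to 0.17 without knockouts 1 and 4, and was 0.03 without control 1, 0.05 with no filter, 0.06 in DESeq2 and 0.06 without knockout 3. The cause was not tested in any of these cases. Of 35 genes that were not called, 10 changed sign in at least 1 of 18 settings.

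With the replicate number as a block, 121 genes and 1 of the 36 were called, and Hk3 stood at -1.98 (edgeR adjusted p = 0.0281). At an unadjusted p under 0.05, that fit had 15 of the 36, and 965 higher and 1466 lower of all 14679 genes. The reported fit had 13 of the 36, and 580 higher and 1013 lower of all genes. Libraries with the same number had correlations of deviations of 0.20, -0.05 and -0.02, and not every library correlated best with its own number. With only 3 controls and 4 knockouts, these values cannot settle whether the numbers pair the libraries. Counts under 10 CPM, such as those of Eno2, Aldoc and Pfkfb1, limit what depth can show.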
